A study of Mus musculus with 24 samples.

Results

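Csf1, Il34, Cx3cl1, Ccl2, Il6, Lif and Clcf1 encode secreted or shed signals by which sensory neurons can address macrophages, microglia and other cells of the ganglion and spinal cord. They were chosen by name, and all 7 were found among the 47643 gene identifiers of the count files. Although these genes are grouped as signals of the injured neuron, the ganglia studied were on the side opposite a crush of the sciatic nerve 3 d before collection, so the cells themselves were not axotomized.

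Libraries were made from GFP-positive L4 dorsal root ganglion (DRG) cells of 4 control and 4 Nav-Tsc2 mice, 8 to 9 weeks of age and of a mixed C57BL/6 and AJ background. All mice carried Nav1.8-Cre, which is active mainly in C-fiber nociceptors and in some neurons with myelinated axons, and the Cre-dependent reporter Rosa26-ZsGreen. Control mice were Tsc2 flox/+, so that their recombined cells retained 1 intact allele, whereas Nav-Tsc2 mice were Tsc2 flox/null and carried the null allele in every cell. Each mouse, 2 males (replicates 1 and 2) and 2 females (replicates 3 and 4) per genotype, gave 3 libraries of 100 sorted cells, and the counts of these libraries were summed because the mouse was the replicate. The question was how loss of Tsc2, the negative regulator of mTORC1, alters gene expression in nociceptors.

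CSF1 and IL-34 both act through the receptor CSF1R, which macrophages and microglia need for survival and proliferation. CX3CL1 is a membrane-bound chemokine that is shed by proteases and binds CX3CR1, and CCL2 recruits monocytes through CCR2. IL-6, LIF and cardiotrophin-like cytokine factor 1 (CLCF1) belong to the family of cytokines that signal through gp130, the product of Il6st, to JAK kinases and STAT3. After nerve injury, sensory neurons are known to raise CSF1, which is carried to the spinal cord and stimulates microglia.

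Levels are given as CPM, the usual depth-scaled unit of RNA-seq, in which values of mice and of libraries can be set side by side. Tsc2 averaged 20.9 ± 5.18 CPM in control and 8.87 ± 1.52 CPM in Nav-Tsc2 mice (SD, n = 4 each), and no mouse overlapped the other genotype. The exons that the flox allele loses are not given in the sources used here, so counts over the whole gene check the deletion only in part, and 7.20% of the exon bases of Tsc2 overlap Pkd1 on the other strand. Libraries held 8339220 to 34228180 counts on genes, and mice 47959617 to 61290435. Markers of nociceptors and neurons summed to 22926 to 34717 CPM in control and 20005 to 24200 CPM in Nav-Tsc2 mice, and all 15 of them were detected. This sum does not measure the number of neurons. It holds Calca, at 10162 CPM in control and 2557 CPM in Nav-Tsc2 mice, and Snap25, at 4402 and 2051 CPM. Tubb3, also abundant, was at 5908 and 7774 CPM. In samples of this kind, fewer cells that express a gene and less RNA per cell cannot be told apart. Reads were amplified without molecular identifiers, so an interval from counts covers counting error only.

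Csf1 and Clcf1, 2 of the 7 genes, were higher in Nav-Tsc2 than in control DRG cells, and 0 of the 7 were called lower (edgeR, 1 at an unadjusted p under 0.05 and 1 called by DESeq2, in both cases Ccl2). Csf1, the main CSF1R ligand, rose 4.36-fold in mean CPM, and Clcf1, a gp130 cytokine, went from 0.511 to 12.6 CPM. The fit tested 5 of the 7 genes, since Cx3cl1 and Lif did not pass the filter on low counts. Among all 17178 genes tested with edgeR, 17.1% were called in either direction, 9.12% higher and 8.00% lower. A call required an absolute log2 fold change above 0.5 together with an adjusted p below 0.05. Mice of the genotypes did not overlap for Csf1 and Clcf1, a separation that 26.9% of all tested genes showed.

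**Figure D1:**
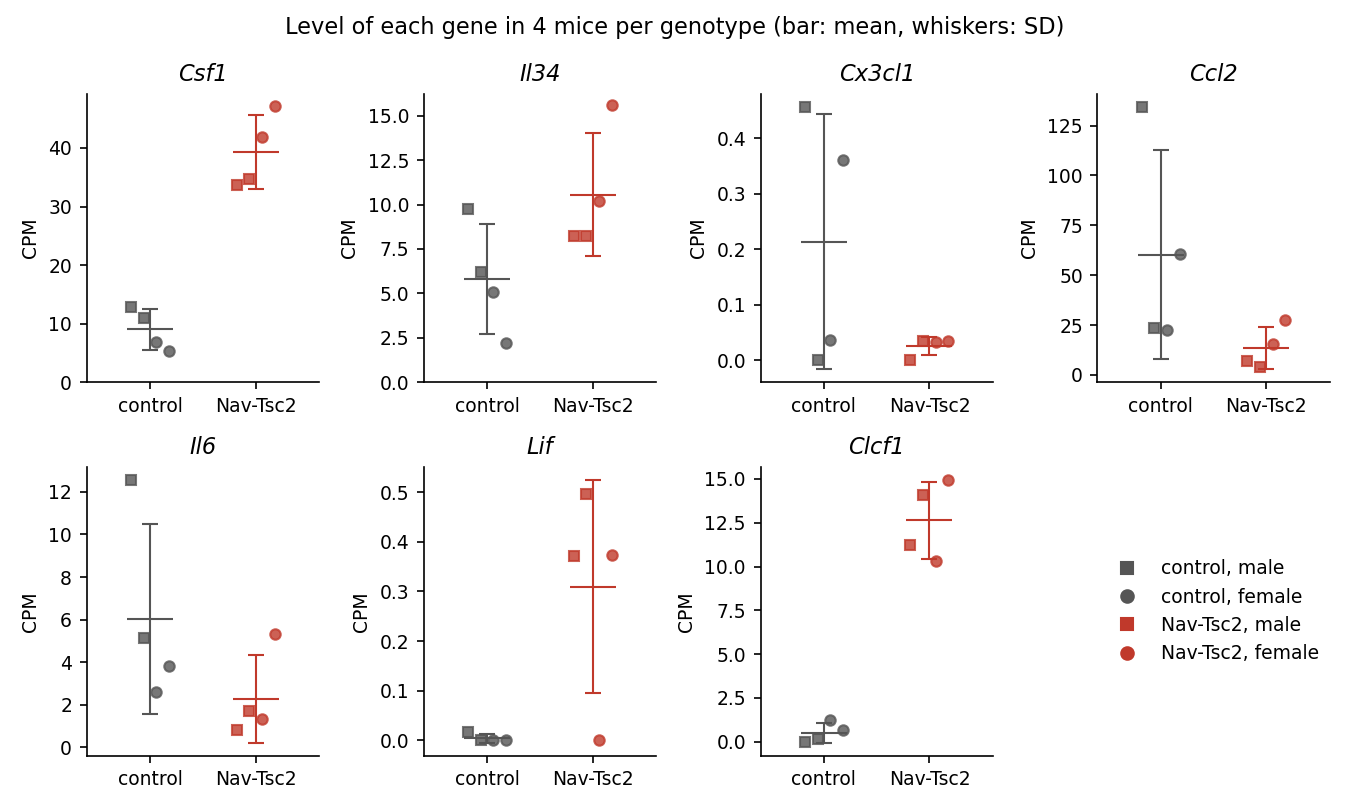
CPM of the 7 genes in each of 4 control (grey) and 4 Nav-Tsc2 (red) mice, on a linear axis of its own for each gene. Squares are males and circles females, the bar is the mean and the whiskers are the SD. Nav-Tsc2 mice lie above all control mice for Csf1 and Clcf1, and the genotypes overlap for the other 5 genes.

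Csf1 lies on the minus strand of chromosome 3 (GRCm38, chr3:107741048-107760469). The 250 bases before its transcription start are shown because Csf1 is the called gene for which this sequence was at hand, beside those of Il6 and Lif, which share motifs of injury- and cytokine-related transcription factors with it or with each other. Capitals mark matches, on either strand, to the AP-1 motif TGANTCA, the NF-kB motif and the GC box GGGCGG. The sequences are from RefSeq (GRCm38.p6) and run 5′ to 3′ on the strand of the gene, at chr3:107760470-107760719 (minus) for Csf1, chr5:30012864-30013113 (plus) for Il6 and chr11:4257318-4257567 (plus) for Lif.
Csf1 promoter: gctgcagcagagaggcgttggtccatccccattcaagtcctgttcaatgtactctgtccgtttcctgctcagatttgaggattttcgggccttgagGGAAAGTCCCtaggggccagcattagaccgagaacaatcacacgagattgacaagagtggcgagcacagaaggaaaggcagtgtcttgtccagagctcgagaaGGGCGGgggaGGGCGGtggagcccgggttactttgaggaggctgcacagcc
Il6 promoter: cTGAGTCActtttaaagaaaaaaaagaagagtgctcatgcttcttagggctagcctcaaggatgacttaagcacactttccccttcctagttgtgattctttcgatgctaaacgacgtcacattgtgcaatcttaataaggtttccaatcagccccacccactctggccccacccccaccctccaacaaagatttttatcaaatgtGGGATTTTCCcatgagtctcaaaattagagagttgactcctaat
Lif promoter: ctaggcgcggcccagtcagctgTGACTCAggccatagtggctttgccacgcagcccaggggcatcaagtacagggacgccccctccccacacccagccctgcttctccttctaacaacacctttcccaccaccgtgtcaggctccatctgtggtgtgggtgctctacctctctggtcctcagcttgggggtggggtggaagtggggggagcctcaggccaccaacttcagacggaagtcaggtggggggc

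The Csf1 sequence held 1 match to the NF-kB motif, 154 to 145 bases before the start, and 2 GC boxes. The Il6 sequence also held 1 NF-kB match, 44 to 35 bases before the start, and 1 AP-1 match. The Lif sequence held 1 AP-1 match, and that of Cx3cl1 held 1 GC box. Of 32851 RefSeq promoters cut to the same 250 bases, 3.90% held an NF-kB match, 6.75% an AP-1 match and 32.7% a GC box. None of the 4 sequences held the STAT motif TTCNNNGAA, the CRE TGACGTCA or the E-box CACGTG, which 7.02%, 1.55% and 6.02% of promoters held. A match is a string of letters and not a measured binding site.

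Csf1 was at 12.8, 11.0, 6.87 and 5.28 CPM in control replicates 1 to 4. In Nav-Tsc2 mice it was at 33.7, 34.6, 41.8 and 47.2 CPM. The lowest Nav-Tsc2 mouse was thus above the highest control mouse by more than the SD of either genotype (3.53 in control and 6.38 in Nav-Tsc2). Csf1 was higher in Nav-Tsc2 mice by 2.12 on the log2 scale (edgeR, adjusted p = 0.000800, standard error 0.28). Of all tested genes, 3.73% had a larger log2 fold change. Each of the 12 Nav-Tsc2 libraries, at 22.1 to 77.5 CPM, exceeded each of the 12 control libraries, at 1.71 to 18.5 CPM, so the difference did not rest on a single library of 100 cells.

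Il34 encodes the second CSF1R ligand and lies on the minus strand at chr8:110741829-110805924. Control mice had 9.73, 6.23, 5.10 and 2.23 CPM of Il34, and Nav-Tsc2 mice had 8.21, 8.23, 10.2 and 15.6 CPM. Control replicate 1 lay within the range of Nav-Tsc2 mice, and the other 3 control mice lay below it. The means were 5.82 ± 3.10 and 10.6 ± 3.48 CPM (SD, n = 4 mice each). The log2 fold change of Il34 was 0.86 (adjusted p = 0.173 from edgeR, standard error 0.41), which did not pass. Il34 was called with libraries weighted equally (log2 fold change 1.38, adjusted p = 0.0336) and with the mouse as a random effect (1.28, adjusted p = 0.0360). Of the exon bases of Il34, 4.95% overlap genes on the other strand, and the strand setting of the counting is not given in the sources used here.

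Clcf1 lies on the plus strand at chr19:4214238-4223490. Control mice had 0, 8, 68 and 33 counts of Clcf1, or 0, 0.151, 1.23 and 0.663 CPM. A count of 0 allows up to 0.0508 CPM in that mouse, which is 3 counts on the same scale. Nav-Tsc2 mice had 11.3, 14.1, 10.3 and 14.9 CPM of Clcf1. The gene was thus near the limit of detection in controls, where 5 of 12 libraries had no count, and was counted in each of the 12 Nav-Tsc2 libraries, at 7.24 to 19.5 CPM against at most 3.10 CPM in a control library. Clcf1 was higher in Nav-Tsc2 mice by 4.63 on the log2 scale (edgeR, adjusted p = 0.00675, standard error 0.91), and 1.04% of all tested genes had a larger log2 fold change. Clcf1 passed the filter on low counts only through Nav-Tsc2 mice, where it is high, which limits this test and rank. Without the filter edgeR gave Clcf1 an adjusted p of 0.00379. It was 0.511 ± 0.557 CPM in control and 12.6 ± 2.20 CPM in Nav-Tsc2 mice (SD, n = 4 each). In the GENCODE annotation 8.17% of its exon bases overlap AC109138.7 on the same strand.

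Lif, on the plus strand at chr11:4257557-4272514, was nearly absent from control cells. Control mice had 1, 0, 0 and 0 counts of Lif, and Nav-Tsc2 mice had 18, 28, 0 and 22 counts. Nav-Tsc2 replicates 1, 2 and 4 thus had more than any control mouse, while replicate 3 had none. The counts of Nav-Tsc2 mice came from 4 of 12 libraries, which held 18, 12, 16 and 22. The ratio of pooled count shares was 67.5 with an exact 95% interval from 11.7 to 2705, which covers counting error only. Mean Lif was 0.00424 ± 0.00847 CPM in control and 0.310 ± 0.214 CPM in Nav-Tsc2 mice (SD, n = 4 each), and a two-sided exact permutation test of the mice gave p = 0.143, where 0.0286 is the smallest p that 4 mice against 4 allow. Without the filter on low counts edgeR gave Lif an adjusted p of 0.0513.

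Il6 lies on the plus strand at chr5:30013114-30019981. Control mice had 12.6, 5.11, 2.60 and 3.82 CPM of Il6, and Nav-Tsc2 mice had 0.782, 1.68, 1.32 and 5.32 CPM. Nav-Tsc2 replicates 1, 2 and 3 lay below all controls, and Nav-Tsc2 replicate 4 lay above 3 of the 4. The log2 fold change of Il6 was -1.40 (adjusted p = 0.174 from edgeR, standard error 0.67) and did not pass. Without Nav-Tsc2 replicate 4 it was -2.26 with an adjusted p of 0.0393, and without control replicate 1 it was -0.76.

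Ccl2, on the plus strand at chr11:82035571-82037453, had the highest CPM of the 7 in control cells and the largest SD between control mice (60.3 ± 52.5 CPM, n = 4). Control mice had 134.5, 23.6, 22.7 and 60.5 CPM of Ccl2. Nav-Tsc2 mice had 6.89, 4.23, 15.3 and 27.7 CPM. Nav-Tsc2 replicate 4 lay above control replicates 2 and 3, and the other 3 Nav-Tsc2 mice lay below all controls. The log2 fold change of Ccl2 was -2.16 (adjusted p = 0.0573 from edgeR, standard error 0.71), just outside the threshold. It passed with DESeq2 (adjusted p = 0.0282) and in 3 of the 8 fits that left out a mouse (control replicate 2, control replicate 3 or Nav-Tsc2 replicate 4), with log2 fold changes of -2.42, -2.44 and -2.78. Without control replicate 1 the value was -1.40 with an adjusted p of 0.159.

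Cx3cl1, on the plus strand at chr8:94772009-94782427, was scarce in both genotypes. Control mice had 27, 0, 2 and 18 counts of Cx3cl1, and Nav-Tsc2 mice had 0, 2, 2 and 2. In CPM the means were 0.214 ± 0.230 in control and 0.0255 ± 0.0170 in Nav-Tsc2 mice (SD, n = 4 each). A single control library held 25 of the 27 counts of control replicate 1. The ratio of pooled count shares was 0.127 with an exact 95% interval from 0.0443 to 0.297, which covers counting error only. Over mice the two-sided exact permutation test gave p = 0.229, so it did not tell the genotypes apart at these low counts.

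**Figure D2:**
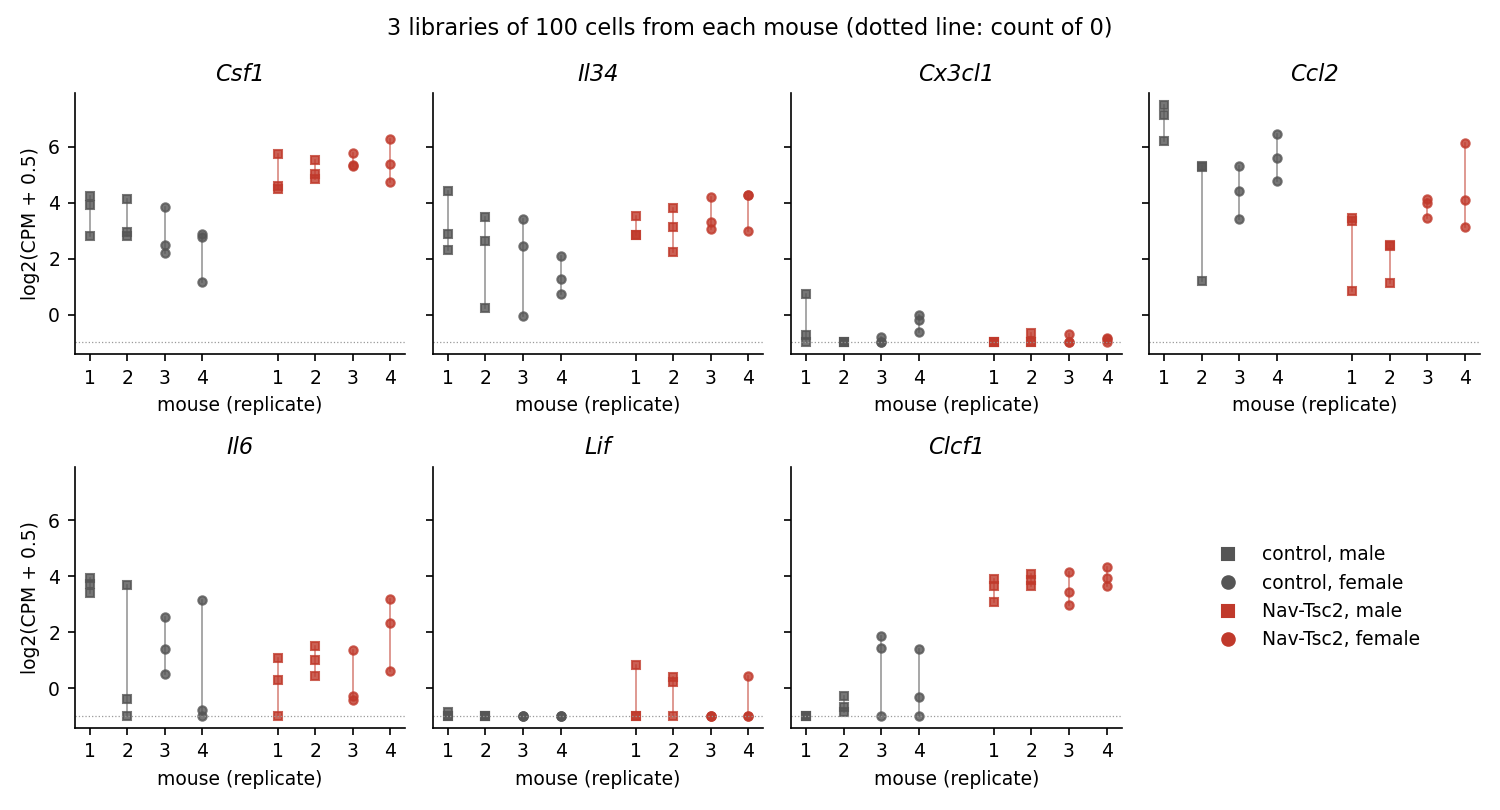
Level of each gene on the scale log2(CPM + 0.5) in the 3 libraries of each mouse, joined by a line. Control mice (grey) are on the left and Nav-Tsc2 mice (red) on the right of each panel, and the dotted line marks a count of 0. Libraries of the same mouse are far apart for Ccl2 and Il6, whereas all 12 Nav-Tsc2 libraries lie above all 12 control libraries for Csf1 and Clcf1.

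Libraries of the same mouse differed widely for some genes. On the scale log2(CPM + 0.5) the SD between libraries of the same mouse was 0.71 for Csf1, 0.76 for Clcf1, 1.08 for Il34, 1.27 for Ccl2 and 1.46 for Il6. The SD between the means of mice of a genotype was 0.46, 0.57, 0.61, 1.24 and 1.21, in the same order. A mean of 3 libraries varies less than a single library, so the sizes of these SDs do not show whether libraries or mice differed more. For Il6 a single library gave up to 99.5% of the count of a control mouse and up to 90.1% of that of a Nav-Tsc2 mouse, so its level rested in places on 100 cells. For Csf1 the highest library of a mouse gave at most 63.1% in control and 56.1% in Nav-Tsc2 mice.

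Scaled by exon length (CPM per kilobase), the 7 genes stood in a different order in each genotype. In control mice Ccl2 led with 53.0 ± 46.1, followed by Il34 with 2.97 ± 1.58, Il6 with 2.48 ± 1.84 and Csf1 with 1.71 ± 0.668 CPM per kilobase (SD, n = 4 mice). Clcf1 followed with 0.134 ± 0.146, Cx3cl1 with 0.0544 ± 0.0585 and Lif with 0.000974 ± 0.00195. Ccl2 was above Il34, and Csf1 above Clcf1, without overlap, while the other neighbours in this order overlapped between mice. In Nav-Tsc2 mice the order was Ccl2 with 11.9 ± 9.27, Csf1 with 7.45 ± 1.21, Il34 with 5.39 ± 1.78 and Clcf1 with 3.32 ± 0.577 CPM per kilobase. Il6 followed with 0.937 ± 0.848, Lif with 0.0712 ± 0.0493 and Cx3cl1 with 0.00648 ± 0.00433. Here Ccl2 overlapped with Csf1, and Lif with Cx3cl1, and Csf1 exceeded Il34 in each of the 4 mice although their ranges overlapped. Il34, Clcf1, Il6 and Lif were separated from one another.

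The genotype difference was also examined in each sex. In males Csf1 went from 11.9 to 34.1 CPM (2.86-fold, n = 2 mice each), and in females from 6.08 to 44.5 CPM (7.32-fold). Clcf1 went from 0.0757 to 12.7 CPM in males and from 0.946 to 12.6 CPM in females, and was thus higher in Nav-Tsc2 mice of both sexes without overlap. Il34 was at 7.98 and 8.22 CPM in control and Nav-Tsc2 males and at 3.67 and 12.9 CPM in females. Ccl2 was at 79.1 and 5.56 CPM in males and at 41.6 and 21.5 CPM in females, and Il6 at 8.83 and 1.23 CPM in males and at 3.21 and 3.32 CPM in females. The interaction of genotype and sex was called for none of the 5 genes (edgeR, adjusted p from 0.194 for Csf1 to 0.485 for Ccl2) and for 0.00582% of all genes. Unadjusted p-values of the interaction were under 0.05 for all 5 genes and for 9.22% of all genes. DESeq2 called the interaction for Csf1 (1.37 on the log2 scale, adjusted p = 0.00310) and Clcf1 (-3.69, adjusted p = 0.00461). The share of all genes with an interaction called by DESeq2 was not determined, so whether these genes stand out cannot be told.

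Receptors of these cytokines were looked at next, because the sorted cells could also receive the signals. Of 9 receptor genes 7 were tested, of which 2, Sdc1 and Cx3cr1, were higher and 0 were lower (edgeR, 0 lower at an unadjusted p under 0.05 and 0 lower by DESeq2). Among all tested genes 9.12% were higher and 8.00% lower. The median log2 fold change of the tested receptors was -0.14, against 0.01 for all tested genes. Lifr and Il6st, which encode signalling subunits of the gp130 receptors, were the most abundant of the 9 in both genotypes and were not called.

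Sdc1 encodes syndecan-1, a heparan sulfate proteoglycan that can bind IL-34. Control mice had 3.69, 4.01, 13.2 and 13.2 CPM of Sdc1, and Nav-Tsc2 mice had 160.2, 112.5, 132.4 and 138.5 CPM. Mice of the genotypes did not overlap, nor did any of their libraries (0.975 to 19.5 CPM in control and 75.7 to 254.3 CPM in Nav-Tsc2 libraries). Sdc1 was higher in Nav-Tsc2 mice by 4.00 on the log2 scale (edgeR, adjusted p = 0.000391, standard error 0.45). Ptprz1, which encodes another receptor described for IL-34, was at 17.9 ± 2.18 and 13.9 ± 2.96 CPM (SD, n = 4 mice each, adjusted p = 0.190).

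Cx3cr1, the receptor of CX3CL1 and a gene of macrophages and microglia, had 2, 1, 1 and 3 counts in control mice and 137, 395, 226 and 551 counts in Nav-Tsc2 mice. It was counted in each of the 12 Nav-Tsc2 libraries, at 0.143 to 28.2 CPM, and in 5 of 12 control libraries, at no more than 0.126 CPM. The mean was 0.0328 ± 0.0197 CPM in control and 5.71 ± 3.01 CPM in Nav-Tsc2 mice (SD, n = 4 each, adjusted p = 9.98e-05 from edgeR). Cx3cr1 passed the filter on low counts only through Nav-Tsc2 mice, which limits this test. The log2 fold change of Cx3cr1 was 7.36 (standard error 0.63) and ranged from 4.48 to 7.77 over the alternatives, the lowest with libraries weighted equally. Csf1r, the receptor of CSF1 and IL-34, was at 0.407, 0.0189, 0.597 and 2.19 CPM in control and at 2.22, 3.91, 3.77 and 4.94 CPM in Nav-Tsc2 mice. These mice did not overlap, but the difference did not pass (log2 fold change 2.21, adjusted p = 0.119 from edgeR, standard error 0.91). Csf1r was called with DESeq2 (adjusted p = 0.0339), with libraries weighted equally (adjusted p = 0.00180), with the mouse as a random effect (adjusted p = 0.000319) and without control replicate 4 (adjusted p = 0.0261). That mouse had 109 counts of it where the other control mice had 24, 1 and 33. Ccr2, the receptor of CCL2, had 0, 1, 1 and 2 counts in control and 36, 81, 50 and 8 counts in Nav-Tsc2 mice and did not pass the filter. Without the filter edgeR called Ccr2 higher (log2 fold change 5.21, adjusted p = 0.0105), and it was also called in 5 of the 8 fits that left out a mouse. In those fits Ccr2 passed the filter only through Nav-Tsc2 mice.

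Lifr, the LIF receptor subunit that CLCF1 also uses, was at 1557 ± 222 CPM in control and 1290 ± 149 CPM in Nav-Tsc2 mice (SD, n = 4 each, adjusted p = 0.148 from edgeR). Il6st, which encodes gp130, was at 207.5 ± 59.0 and 188.6 ± 11.3 CPM (adjusted p = 0.667). Cntfr, the subunit by which CNTF and CLCF1 bind the receptor, was at 10.3 ± 2.59 and 7.82 ± 1.96 CPM (adjusted p = 0.299). The cells of both genotypes thus held RNA of the 3 subunits that CLCF1 uses. Il6ra, the IL-6 binding subunit, was scarce, with 2, 0, 8 and 14 counts in control and 0, 10, 3 and 70 in Nav-Tsc2 mice, and was not tested.

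Of 5 genes for enzymes and cofactors that process ligands such as these, 0 were called in either direction (edgeR, 0 at an unadjusted p under 0.05 and 0 by DESeq2), and their median log2 fold change was 0.08. Adam10, a protease that sheds CX3CL1, was at 118.0 ± 18.4 and 137.3 ± 2.59 CPM (adjusted p = 0.204), and Adam17, the inducible sheddase, at 6.40 ± 3.31 and 6.46 ± 0.874 CPM (adjusted p = 0.985). Rhbdf1 and Rhbdf2, the iRhom proteins that ADAM17 requires, had adjusted p-values of 0.923 and 0.356, and Furin, a proprotein convertase, was at 21.5 ± 3.12 and 17.8 ± 3.76 CPM (adjusted p = 0.338).

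**Figure D3:**
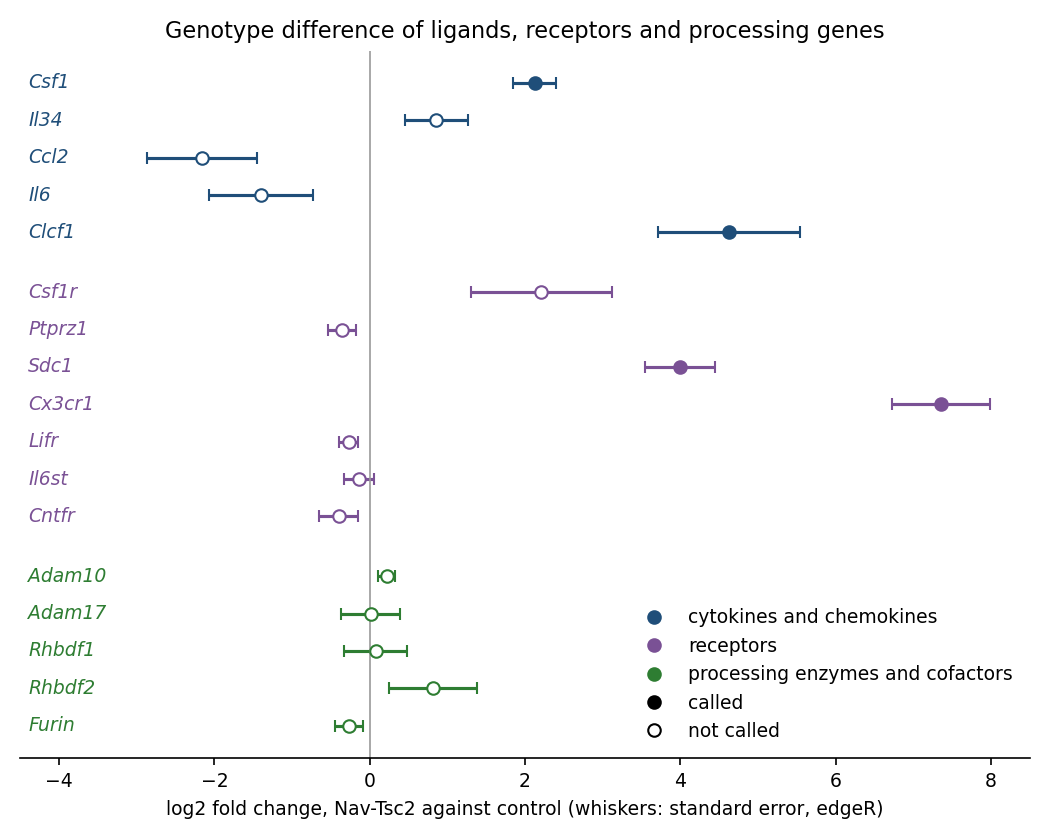
Log2 fold change of Nav-Tsc2 against control mice with its standard error (edgeR, n = 4 mice each) for the tested cytokines and chemokines (blue), receptors (purple) and processing enzymes and cofactors (green). Filled points passed the threshold. Csf1, Clcf1, Sdc1 and Cx3cr1 are filled and lie to the right of 0, while Lifr, Il6st and Cntfr lie within 0.5 of 0 and are open.

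Related genes gave the setting of these values. Of 6 other gp130 cytokines none passed the filter on low counts, Il27 and Il31 had no count in any mouse, and Ctf1 (cardiotrophin) at 0.0599 and 0.216 CPM and Il11 at 0.104 and 0.0140 CPM in control and Nav-Tsc2 mice had the highest means. Of 31 other chemokines 11 were tested, 2 were higher and 2 were lower, and their median log2 fold change was -0.54. Cxcl14 went from 0.0100 ± 0.0201 to 2.41 ± 1.02 CPM (adjusted p = 0.000759 from edgeR), and Cxcl16, a transmembrane chemokine named here after its values were seen, went from 0.832 ± 0.790 to 9.85 ± 1.76 CPM (adjusted p = 0.00682). Cxcl14 passed the filter on low counts only through Nav-Tsc2 mice. Cxcl1, a neutrophil chemoattractant, went from 1.02 ± 0.342 to 0.0254 ± 0.0508 CPM (adjusted p = 0.0155), and Ccl27a from 14.4 ± 1.02 to 9.79 ± 1.35 CPM (adjusted p = 0.0304). Ccl27a was not called without the low-count filter, with the replicate block, with libraries weighted equally or in 5 of the 8 fits that left out a mouse. Ccl25, the other abundant chemokine, was at 21.9 ± 4.87 and 20.0 ± 1.59 CPM (adjusted p = 0.654). The genes called among chemokines thus differed in direction, as the 7 genes did in the sign of their estimates.

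Of 28 other cytokines and growth factors of myeloid cells 15 were tested, 1 was higher and 2 were lower, with a median log2 fold change of 0.07. Among all tested genes 9.12% were higher and 8.00% lower. Il16, a chemoattractant for CD4-bearing cells, went from 0.165 ± 0.210 to 2.25 ± 0.415 CPM (adjusted p = 0.0225 from edgeR) and passed the filter on low counts only through Nav-Tsc2 mice. Tgfb2 fell from 15.9 ± 1.86 to 4.13 ± 2.09 CPM (adjusted p = 0.00460), and Kitl, the ligand of KIT, named here after its values were seen, from 37.8 ± 17.7 to 20.2 ± 2.40 CPM (adjusted p = 0.0417). Cd47 and Cd200, surface ligands that restrain macrophages and the most abundant of the list, were at 312.1 and 326.6 CPM (adjusted p = 0.768) and at 165.5 and 231.4 CPM (adjusted p = 0.0270, below the fold threshold with a log2 fold change of 0.48).

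Among STAT3 targets and NF-kB feedback genes 15 of 16 were tested, their median log2 fold change was 0.28, 2 were higher and 0 were lower by edgeR, with 5 higher and 1 lower both at an unadjusted p under 0.05 and by DESeq2. Among all tested genes edgeR called 9.12% higher and 8.00% lower. Stat3 went from 309.4 ± 28.6 to 471.6 ± 42.9 CPM (log2 fold change 0.61, adjusted p = 0.00225 from edgeR, standard error 0.10). Relb, a subunit of the noncanonical NF-kB pathway, went from 1.47 ± 0.164 to 4.88 ± 0.628 CPM (log2 fold change 1.73, standard error 0.27, adjusted p = 0.00214). Zfp36, which encodes an mRNA-destabilizing protein and was among the most abundant of the list, was at 61.3 ± 24.4 and 36.6 ± 12.7 CPM (adjusted p = 0.168).

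Genes known to rise in sensory neurons after nerve injury were higher in these uninjured ganglia, in 17 of 19 tested cases, and 0 were lower (edgeR, 0 lower at an unadjusted p under 0.05 and 0 lower by DESeq2). Their median log2 fold change was 2.71, against 0.01 for all tested genes, of which 9.12% were higher. The list was chosen with earlier results of these data known, so these values are a description. Cckbr, a cholecystokinin receptor, had the smallest adjusted p (0.393 ± 0.0620 against 89.8 ± 8.67 CPM, adjusted p = 1.47e-08 from edgeR), and the neuropeptide gene Nts went from 72.5 ± 38.3 to 2012 ± 835 CPM (adjusted p = 0.000505). Gap43, a growth cone protein, was at 1337 ± 426 and 1966 ± 262 CPM (adjusted p = 0.0952). Csf1 and Clcf1, like most genes of this list, were called higher in Nav-Tsc2 mice. Il6 and Ccl2 had estimates of the opposite sign and were not called by edgeR with all mice. Each library pooled sorted cells, so whether the same cells carried these differences was not tested, nor was a link between them.

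Cell type markers are given beside these values because some of the 7 genes and their receptors are also transcribed in macrophages. The counts of called markers stand beside 9.12% higher and 8.00% lower among all tested genes. Of 15 macrophage genes, a list that holds Cx3cr1 and Csf1r, 8 were tested, Cx3cr1 was the 1 that was higher and 0 were lower (edgeR, 0 lower at an unadjusted p under 0.05 and 0 lower by DESeq2). The list summed to 6.25 to 13.8 CPM in control and 12.7 to 32.5 CPM in Nav-Tsc2 mice, none of its genes was at 0 in all mice, and 6 of them were under 1 CPM in every mouse. Lyz2 was at 2.35 ± 3.51 and 2.43 ± 2.63 CPM (adjusted p = 0.983), and Cd68, a lysosomal protein of macrophages, was at 0.495 ± 0.531 and 2.03 ± 0.476 CPM without overlap of mice (adjusted p = 0.168). Of the 8 tested genes, Cx3cr1, Csf1r and Cd68 had log2 fold changes of at least 2.03, C1qb had -1.60, and the other 4 lay between -0.01 and 0.34 (Cd68 and C1qb are named here after their values were seen). The untested macrophage genes, also named after their values were seen, were scarce. Means in control and Nav-Tsc2 mice were lower in the latter for Ptprc (0.203 and 0.0129 CPM), Adgre1 (0.196 and 0.102), Tyrobp (0.177 and 0.111) and Fcer1g (0.255 and 0.166). They were higher for Ctss (0.165 and 0.390), C1qc (0.0452 and 0.0719) and C1qa (0.0201 and 0.0212). Of 13 endothelial and mural genes 7 were tested, 5 were higher and 0 were lower (edgeR, 0 lower at an unadjusted p under 0.05 and 0 lower by DESeq2), and the list summed to 6.17 to 47.7 CPM in control and 29.5 to 157.3 CPM in Nav-Tsc2 mice. Of the list, 5 genes were under 1 CPM in every mouse. Among the untested genes, named here after their values were seen, Pecam1 was at 0.422 and 0.315 CPM and Emcn at 0.384 and 0.0309 CPM. Cdh5 was at 0.0511 and 0.115, Cldn5 at 0.0151 and 0.0239, Tie1 at 0 and 0.0411 and Kcnj8 at 0 and 0.0103 CPM. Flt1 went from 0.0338 ± 0.0295 to 8.56 ± 4.01 CPM (adjusted p = 0.000142), while Rgs5 was at 10.7 ± 18.7 and 54.0 ± 62.7 CPM (adjusted p = 0.361) and Pdgfrb went from 6.89 ± 3.23 to 14.8 ± 3.27 CPM (adjusted p = 0.0493). Flt1 passed the filter on low counts only through Nav-Tsc2 mice. Across the 24 libraries, with genotype means removed, the summed macrophage markers had Pearson r = 0.35 with Csf1 and 0.48 with Clcf1. In the same order, the summed endothelial and mural markers had -0.19 and 0.35, and nociceptor and neuron markers 0.38 and -0.56. Markers of satellite glia and Schwann cells had 0.34 and -0.03, of large-fibre neurons 0.11 and -0.34, and of fibroblasts 0.06 and -0.19. Those of neutrophils, T cells and red blood cells had -0.10 and -0.46. These values are given as a description. The part of these cell types in the differences of Csf1, Clcf1 and the receptors was not tested.

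**Figure D4:**
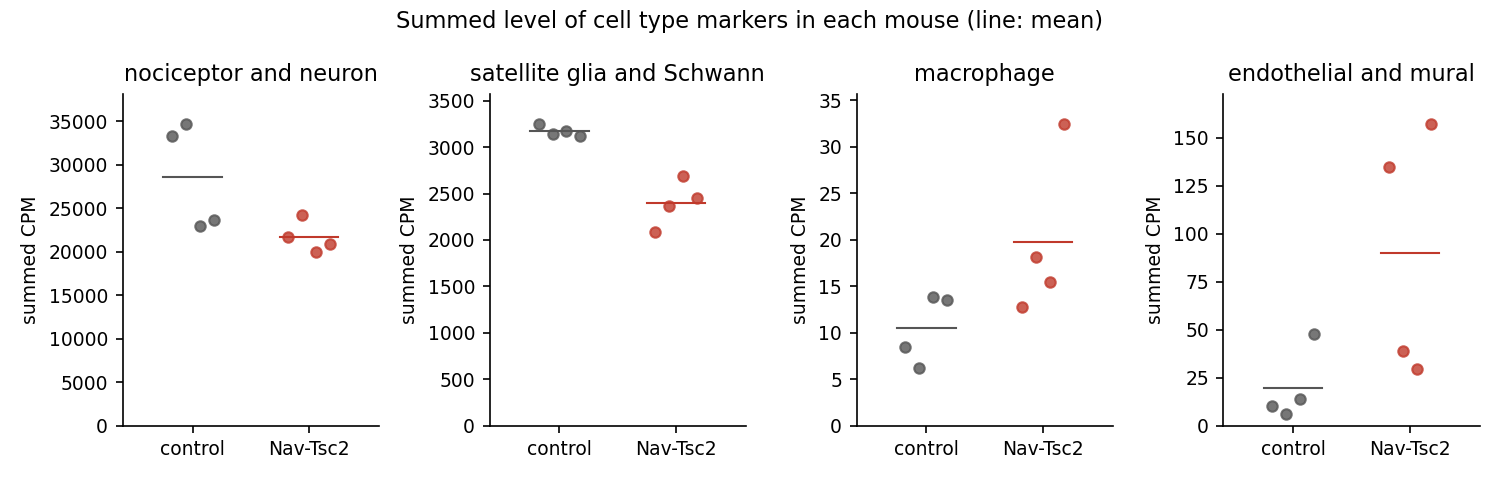
Summed CPM of the markers of 4 cell types in each control (grey) and Nav-Tsc2 (red) mouse, on axes that start at 0, with the mean as a line. Macrophage markers sum to at most 32.5 CPM in any mouse, against at least 20005 CPM for nociceptor and neuron markers. Satellite glia and Schwann cell markers sum to 3117 to 3252 CPM in control and 2087 to 2688 CPM in Nav-Tsc2 mice. The lists hold different genes, so their sums are not shares of cells.

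Across the 24 libraries, with the mean of each genotype removed, the genes of the 10173 with at least 5 CPM whose log2(CPM + 0.5) was most like that of Csf1 were Tpd52l2 (Pearson r = 0.850), Susd6 (0.774) and Gm29666 (0.754). For Il34 they were Akr1b8 (0.768), Gnpda2 (0.765) and Racgap1 (0.761), and for Clcf1 they were Nap1l3 (0.710), Ank3 (0.705) and Tbc1d13 (0.701). Those most like Ccl2 were Adsl (0.766), Hmgb1 (0.702) and Dnajc8 (0.698), and those most like Il6 were Calhm4 (0.756), Cuedc1 (0.722) and Efcab7 (0.720). Of these 15 genes only Calhm4 was called between genotypes, and it was lower (13.6 CPM in control and 0.726 CPM in Nav-Tsc2 mice). Among the 10 pairs of members r was 0.63 for Csf1 and Il34, 0.52 for Il34 and Il6 and 0.48 for Csf1 and Il6. The other 7 pairs lay between -0.29 and 0.17, with -0.11 for the called genes Csf1 and Clcf1. The points share library, depth and mouse, and these values are a description.

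**Figure D5:**
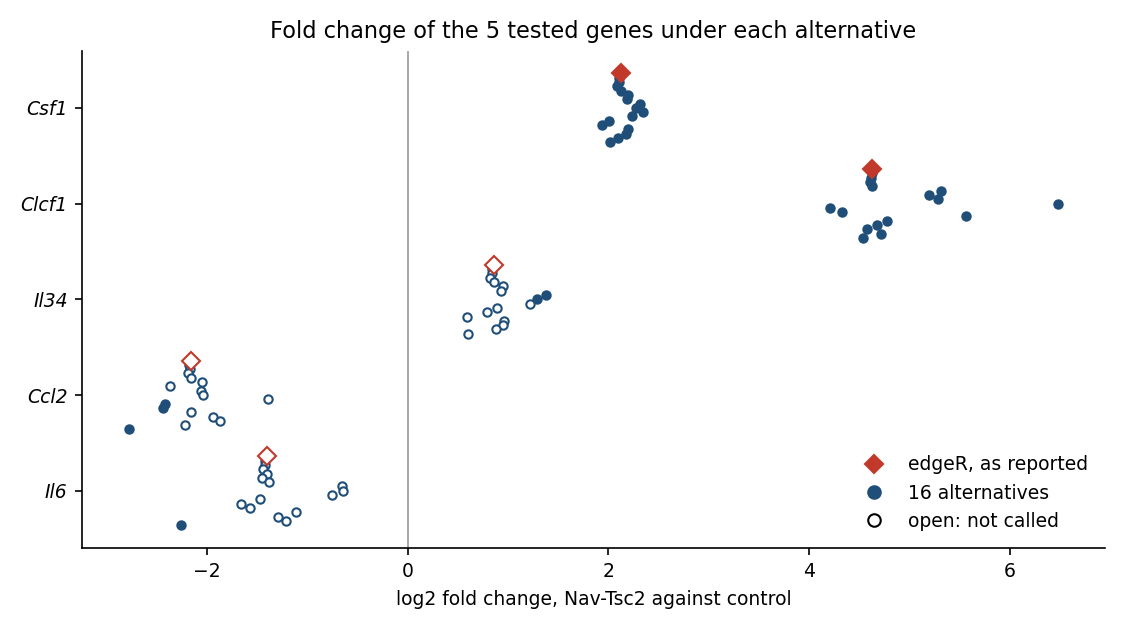
Log2 fold change of Nav-Tsc2 against control mice for the 5 tested genes as reported (diamond) and under 16 alternatives of test, scaling, filter, covariate, weighting and left-out mice (circles). Open symbols did not pass the threshold. Csf1 stays between 1.94 and 2.35 and Clcf1 between 4.21 and 6.48, called in each case, while Ccl2, Il6 and Il34 keep their sign and are open in most.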

How the data were processed

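RNA-seq was performed on 24 libraries of 100 GFP-positive L4 DRG cells, with 3 libraries a mouse and 4 mice a genotype. The authors aligned reads to mm10 with STAR, and the deposited values are raw HTSeq counts of each gene in each library. HTSeq left 37.5 to 42.6% of the reads out as not uniquely aligned. Versions and the strand setting are not given in the sources used here. A deposited table of the authors' own DESeq2 comparison (normalized values, fold changes and p-values) was not used.

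Of 47643 identifiers 47224 matched a symbol. Counts were summed per mouse, filtered with filterByExpr, scaled by TMM and tested with edgeR 4.0.16 (quasi-likelihood F-test, Benjamini-Hochberg adjustment over 17178 genes) in R 4.3.3. The standard error of a log2 fold change was its size over the root of the F statistic. Exon lengths and overlaps were taken from the GENCODE annotation of GRCm38. Exact permutation tests were run with scipy 1.17.1. The fit was tested on simulated data.

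A call required an absolute log2 fold change above 0.5 together with an adjusted p below 0.05. The genes named were the 7 members, their receptors and processing genes, and Tsc2, and a gene listed with the processing genes is not reported here. From every other list the called gene with the smallest adjusted p in each direction and the 2 genes with the highest mean CPM were named. For each member with a mean of at least 1 CPM, the 3 most similar genes were named. The members and lists were chosen with earlier results of these data known. The alternatives were DESeq2 1.42.0 or its size factors in edgeR, scaling by upper quartiles, testing without a filter, adding sex or a replicate block to the model, limma 3.58.1 on log2 values of libraries (prior count 2) averaged per mouse or with the mouse as a random effect, leaving out each mouse, and the longest transcript as the length.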

Additional observations from a re-analysis of the deposited data

Results flagged for a closer look

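Of 16 groups of 4 mice (8 genes in each genotype), 2 held a mouse far from the others by Dixon's test, where chance gives about 0.8. Cx3cl1 was at 0 CPM in Nav-Tsc2 replicate 1, while the other Nav-Tsc2 mice lay between 0.0327 and 0.0354 CPM, which is 2 counts each. Lif was at 0.0169 CPM in control replicate 1, which is 1 count, and at 0 in the other control mice. Both lie under the limit of 0.0490 to 0.0617 CPM that a count of 0 allows.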

How the results depend on the processing

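None of the 5 tested members, nor Tsc2, Sdc1 or Cx3cr1, changed direction in any of 16 alternatives, and Csf1, Clcf1 and the latter 3 genes were called in each. The number of members called was 2 as reported and 2 to 4 with 1 mouse left out. It was 4 without Nav-Tsc2 replicate 4, where Ccl2 and Il6 passed. Lif passed the filter, through Nav-Tsc2 mice alone, in fits that left out a control mouse, and was not called there. Without Nav-Tsc2 replicate 3, the mouse with no count, Lif also passed the filter and was called. That call rests on which mouse was left out. The number of members with an interaction of genotype and sex was 0 as reported, 2 with DESeq2 and 4 without the low-count filter, and 0 with any mouse left out. For DESeq2 and the fit without the filter, the share of all genes with an interaction was not determined. Between 2145 and 3502 genes were called with 1 mouse left out. With 1 mouse left out, calls ranged from 2 to 4 among receptors, the highest without control replicate 4 (Csf1r and Ccr2 added), from 1 to 5 among other myeloid cytokines, from 2 to 4 among STAT3 and NF-kB targets and from 3 to 6 among immediate early genes. Among the processing genes 0 were called as reported and 1, Rhbdf2, with the mouse as a random effect. STAT3 and NF-kB targets were called in 6 cases with DESeq2, with libraries weighted equally and with mice modelled as a random effect. The cause was not tested. Weighting libraries equally and the random effect moved the median of all genes to 0.12 and 0.14 on the log2 scale, and the split of calls from 1567 higher and 1374 lower to 2311 and 1297 and to 2705 and 1339. Over all alternatives calls ranged from 3 to 5 among chemokines, with 1 or 2 lower, and, among markers, from 1 to 4 for macrophages, 3 to 5 for endothelial and mural cells, 1 to 4 for glia (2 lower with DESeq2, the block or a sex term, and 2 higher and 2 lower with the random effect), 0 to 3 for fibroblasts (all higher, 3 with the random effect), 5 to 8 for neurons, 2 to 4 for large-fibre neurons and 1 to 4 for neutrophils, T cells and red blood cells. The length of the longest transcript changed the order of 0 pairs of members in either genotype.

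Equal replicate numbers were not shown to pair the mice. Deviations from the genotype means over 8445 genes, which are not independent replicates, correlated at 0.101, 0.121, 0.0341 and 0.124 for replicates 1 to 4, and not every mouse correlated best with its own number. With a replicate block 2445 genes and 2 members were called, Csf1 (2.19, adjusted p = 0.00862) and Clcf1 (5.31, adjusted p = 0.0200), and no call of a member changed, while Ccl27a was no longer called. Lif and Cx3cl1 lay near the limit of detection, and with 4 mice a genotype no exact permutation p below 0.0286 can be reached.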

Other observations

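Of 19 immediate early genes, which dissociation can induce, 18 were tested, 3 were higher and 2 were lower, and their sum was 434.1 to 907.8 CPM in control and 631.6 to 721.4 CPM in Nav-Tsc2 mice. Among all tested genes 9.12% were higher and 8.00% lower. Dusp1, a MAP kinase phosphatase, went from 78.4 ± 29.0 to 204.7 ± 15.9 CPM (adjusted p = 0.00311 from edgeR), Fos fell from 203.8 ± 57.2 to 118.4 ± 11.5 CPM (adjusted p = 0.0220) and Btg2 from 151.6 ± 59.4 to 72.3 ± 15.8 CPM (adjusted p = 0.0216). Across the 24 libraries, with genotype means removed, the summed level of these genes had r = 0.60 with Csf1, 0.42 with Il6, 0.18 with Il34, 0.11 with Ccl2 and -0.10 with Clcf1, given as a description.

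The marker counts that follow stand beside 9.12% higher and 8.00% lower among all tested genes. Of 15 neuron markers 1 was higher and 4 were lower, with Prph higher (901.7 and 1481 CPM, adjusted p = 0.0111 from edgeR), Snap25 lower (4402 and 2051 CPM, adjusted p = 0.000332), Calca lower (10162 and 2557 CPM, adjusted p = 0.00215) and Tubb3 at 5908 and 7774 CPM (below the fold threshold with a log2 fold change of 0.40). Of 7 tested large-fibre neuron markers 0 were higher (1 at an unadjusted p under 0.05 and 1 by DESeq2) and 2 were lower, with Kcna1 at 34.2 and 6.89 CPM, Cntnap2 at 292.3 and 145.6 CPM and Nefh at 662.4 and 485.7 CPM (adjusted p = 0.205). Of 15 glial markers 0 were higher (0 at an unadjusted p under 0.05 and 0 by DESeq2) and 1 was lower, S100b, at 939.0 and 98.6 CPM (adjusted p = 0.00218), while Pmp22 was at 1481 and 1570 CPM (adjusted p = 0.606). Of 8 fibroblast markers 0 were called in either direction (0 at an unadjusted p under 0.05 and 0 by DESeq2), with Dcn at 154.8 and 112.7 CPM and Apod at 29.1 and 46.9 CPM. Of 5 tested markers of neutrophils, T cells and red blood cells 2 were higher and 0 were lower (edgeR, 3 at an unadjusted p under 0.05 and 1 by DESeq2), with S100a8 at 0.178 and 3.73 CPM (adjusted p = 0.00350), Ly6g, named here after its values were seen, at 0.0395 and 0.700 CPM and Alas2 at 0.762 and 0.278 CPM (adjusted p = 0.103). S100a8 and Ly6g passed the filter on low counts only through Nav-Tsc2 mice. S100a9 and Hbb-bt were at 0 in all mice, and the list summed to 1.85 to 2.91 CPM in control and 3.11 to 6.16 CPM in Nav-Tsc2 mice.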
